A study of Mus musculus with 45 samples.

Results

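Cell lines grown from lung micrometastases were compared with lines grown from the fat-pad tumours of the same parental mammary cancer cells, called YEJH. The rule took the lung lines YEJH-M1 to YEJH-M5 and the fat-pad lines YEJH-FP1 to YEJH-FP5 by their labels, 10 of the 15 lines and 30 of the 45 libraries of the series. Both parental lines and every line of YEJG origin were left out. YEJH is a *PyMT*+ line, which means that it came from MMTV-*PyMT* mice, whose mammary epithelium carries the polyomavirus middle T antigen under a mammary tumour virus promoter, on the inbred FVB/N background. Cells of this line had been transplanted into the mammary fat pad. The fat-pad lines came from the resulting tumours, and the lung lines from isogenic cells of micrometastases found in the lung after such a tumour had been resected. The labels give the source as fat pad tumor, whole lung or, for YEJH-M3, lung metastases. Age and the mouse behind each line are not given in the sources used here, so that p-values measure the spread between these lines. No group had received an agent. How long each line had been in culture since it was derived is not given in the sources used here. The 10 lines share 1 parental line, so that they measure 1 transplanted tumour model. The question was which genes differ between cells that had reached the lung and cells that had stayed in the fat pad.

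Between the fat pad and the lung a tumour cell leaves an epithelium, crosses basement membranes and vessel walls, and resumes growth in another tissue. Genes commonly followed along this path encode matrix proteins and the enzymes that crosslink or cut them, adhesion receptors, secreted signals and the lipid synthesis that dividing cells need for membranes. The RNA came from cultured lines, and what they expressed in the animal was not measured here.

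Each line was sequenced in 3 libraries described as technical repeats, and their counts were summed, so that the line was the unit of replication. The 10 lines had 38265130 to 45958820 reads on genes, and the totals of lung and fat-pad lines differed by less than their spread (exact permutation test, two-sided, 252 ways to split the lines, p = 0.817). Values below are normalised read counts, that is, the sum for a line after TMM scaling to 42965544 reads. Runs A and B were read only from the date-like prefix of the library names, the lower number being A. Each group held 7 libraries of run A and 8 of run B. Library 2 of YEJH-M3 stood apart, with 15.2% of its reads unaligned and 13.3% outside genes, against 2.69 to 6.402% and 5.52 to 7.99% in the other 29 libraries. Its median correlation with the others was 0.965, and theirs lay between 0.967 and 0.980. Results were therefore also computed without it. In addition, 1 library left out as YEJG-M1 by its title, source and cell line carries the name of YEJH-M1 repeat 1 in the count table, a name that a library labelled YEJH-M1 also has. Over 9498 genes its correlation was 0.966 to 0.987 with the other 2 YEJG-M1 libraries and 0.884 to 0.912 with YEJH-M1 libraries 2 and 3. The library labelled YEJH-M1 repeat 1 had 0.962 to 0.989 with these YEJH-M1 libraries and 0.871 to 0.909 with those of YEJG-M1, and the labels were followed. Without it the same 7 genes passed.

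The lines carried the markers of mammary epithelium. Summed CPM, read counts scaled to the size of the library, of 6 such genes, among them *Epcam*, *Cdh1*, *Krt8* and *Krt18*, were 5699 to 6601 in fat-pad lines and 5814 to 7217 in lung lines. *Krt5*, a defining basal keratin, had 4 reads over all fat-pad lines and 18 over all lung lines. *Krt14*, another basal keratin among the 6, had 90154 and 65942. Markers of tissues that could have been carried along were low. Among 8 lung epithelial markers the surfactant genes *Sftpa1*, *Sftpb* and *Sftpc* and the secretoglobin *Scgb3a2* had 0 reads in every line, and the summed CPM of 19.7 to 31.4 in fat-pad and 18.6 to 51.8 in lung lines came almost wholly from *Foxj1*. The 11 leukocyte markers summed to 3.26 to 5.26 CPM and 5.73 to 7.39 CPM, with 0 reads of *Cd3e* and *Itgam*, and the lung lines lay above the fat-pad lines. Most of these reads were of *S100a8* (486 over fat-pad and 581 over lung lines) and *Csf1r* (337 and 716), and their part in other results was not tested. *Csf1r* overlaps the oppositely oriented *Hmgxb3*, and reads from either strand could not be told apart. The 6 endothelial markers summed to 0.195 to 0.4098 and 0.221 to 0.827 CPM, with *Cldn5* at 0 reads. The 6 fibroblast markers summed to 3.59 to 4.42 and 2.34 to 4.99 CPM, with *Lum* at 0 reads, and the 6 adipocyte markers to at most 0.159 and 0.174 CPM, with *Adipoq*, *Cfd* and *Lep* at 0 reads.

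Of 14990 genes tested, the edgeR quasi-likelihood test put 7 below an adjusted p of 0.05 (0.0467%). In lung lines 1 of them was higher and 6 were lower. They encode a secreted matrix glycoprotein, a laminin chain, a protease inhibitor, a water channel, a GTPase-activating protein, a Wnt co-receptor partner and a membrane protein. In each of the 7 the lung lines and fat-pad lines did not overlap. Non-overlapping lines were found in 96 genes with higher (0.64%) and 207 genes with lower (1.38%) values in lung. At an unadjusted p under 0.05 there were 510 genes higher (3.4%) and 621 lower (4.14%) in lung lines.

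*Adamtsl3* encodes a secreted ADAMTS-like glycoprotein of the extracellular matrix that lacks the protease domain of its relatives, and lies at chr7:81984645-82263658 of GRCm39. YEJH-FP1 to YEJH-FP5 held 317, 333, 333, 339 and 322.5 normalised counts, and YEJH-M1 to YEJH-M5 held 168, 165, 157, 128 and 142. The fat-pad lines were close to each other, and every lung line lay far below them. *Adamtsl3* fell 2.16-fold (log2 fold change -1.11, standard error 0.085, adjusted p = 0.000697), the smallest p of all genes tested. Its log2 fold change was -1.05 in run A and -1.13 in run B.

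*Lama4* encodes the laminin alpha 4 chain, found in the basement membranes of vessels, muscle and fat, and lies at chr10:38841141-38998403. The fat-pad lines held 70.6, 82.2, 78.01, 77.9 and 125 normalised counts and the lung lines 29, 20.8, 30.4, 31.9 and 33.9. YEJH-FP5 stood above the other fat-pad lines, and all lung lines lay below the lowest of them. *Lama4* fell 2.97-fold (log2 fold change -1.57, standard error 0.19, adjusted p = 0.019). An oppositely oriented gene, *Fam229b*, overlaps it, with 67.7% as many reads and a log2 fold change of 0.27 in the other direction, so that reads of the shared stretch cannot be assigned without strand.

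*Aqp1* encodes a water channel of the plasma membrane that is best known from red cells, kidney tubule and vessel walls, and lies at chr6:55313068-55325540. The fat-pad lines held 419, 581, 340, 259.8 and 369.7 normalised counts and the lung lines 88.1, 121, 152, 119 and 123. The fat-pad lines were spread widely, yet the lowest of them lay above the highest lung line. *Aqp1* fell 3.26-fold (log2 fold change -1.71, standard error 0.21, adjusted p = 0.019), the largest log2 fold change among the 7 genes.

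*Dlc1*, at chr8:37034901-37420297, encodes a GTPase-activating protein that switches off RhoA at focal adhesions. Its normalised counts were 902, 955, 890.1, 726 and 1026 in fat-pad lines and 572, 542, 559, 574 and 614 in lung lines. The lung lines were closer to each other than the fat-pad lines were, with YEJH-FP4 the nearest to them. *Dlc1* fell 1.57-fold (log2 fold change -0.65, standard error 0.083, adjusted p = 0.021).

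*Slpi*, at chr2:164195990-164231015, encodes secretory leukocyte protease inhibitor, which blocks elastase and cathepsin G released by neutrophils. Its normalised counts were 7816, 8375, 6570.5, 7656 and 7618 in fat-pad lines and 5593, 4806, 4494, 5871 and 4797 in lung lines. The highest lung line, YEJH-M4, lay below the lowest fat-pad line, YEJH-FP3. *Slpi* fell 1.49-fold (log2 fold change -0.57, standard error 0.082, adjusted p = 0.046).

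*Kremen1* was the gene that rose. It encodes a membrane receptor for Dickkopf proteins that takes Wnt co-receptors off the cell surface, and lies at chr11:5141548-5211727. The fat-pad lines held 814, 859, 824, 823 and 816 normalised counts and the lung lines 1052, 1156, 1177, 1119 and 1106. The lines of each group lay close together, with a clear step between the groups. *Kremen1* rose 1.36-fold (log2 fold change 0.44, standard error 0.041, adjusted p = 0.0027).

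*Serinc3*, at chr2:163444008-163487086, encodes a membrane protein with many transmembrane segments of a family that scrambles membrane lipids. Its normalised counts were 5464, 5581, 5587.5, 5678 and 5442 in fat-pad lines and 4828, 4799.8, 5013, 4941 and 4882 in lung lines, a narrow step at a high level. *Serinc3* fell 1.13-fold (log2 fold change -0.18, standard error 0.025, adjusted p = 0.044). The oppositely oriented *Ttpal* overlaps it, with 55.4% as many reads and a log2 fold change of -0.02.

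**Figure D1:**
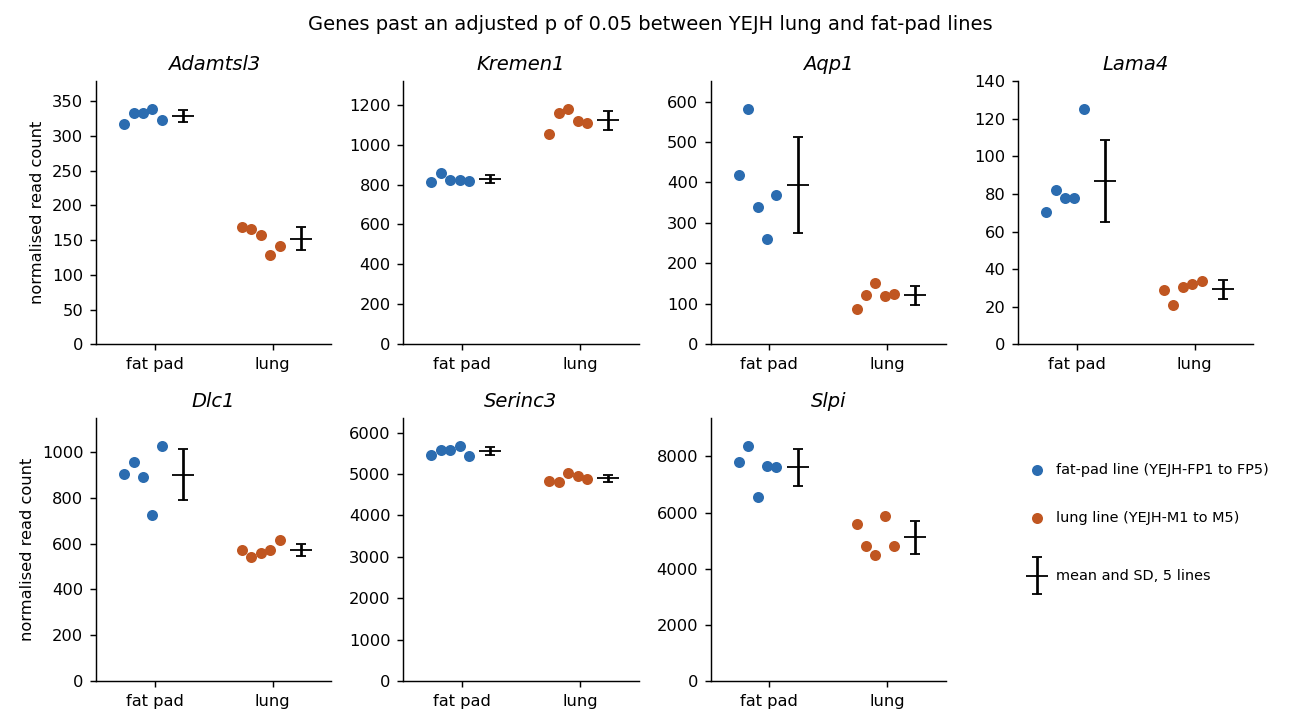
Normalised read counts of the 7 genes past an adjusted p of 0.05 in edgeR's quasi-likelihood test, in the 5 fat-pad lines (blue) and 5 lung lines (orange), with linear axes from 0. Black marks show the mean and SD of each group. In every panel the points of the groups do not overlap, and *Kremen1* is the panel in which the lung lines are the higher ones.

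Either run alone gave all 7 the same direction, and 4 of the 7 passed in each. In run A alone *Lama4* (adjusted p = 0.185), *Dlc1* (0.088) and *Serinc3* (0.231) did not pass. In run B alone *Kremen1* (adjusted p = 0.059), *Slpi* (0.143) and *Serinc3* (0.059) did not pass. With the share of run A libraries as covariate *Serinc3* and *Slpi* missed the threshold (adjusted p = 0.052 for both). Without library 2 of YEJH-M3, 7 genes passed, 6 of them the same, since *Serinc3* (adjusted p = 0.067) was replaced by *Mxra8* (adjusted p = 0.046). With the line number as replicate block in edgeR, 0 of the 7 passed (adjusted p = 0.118 to 0.317). With each line or each technical repeat number left out in turn, *Adamtsl3* and *Kremen1* passed in all 13 fits. *Aqp1* did not pass in 3 of them, without YEJH-FP1 (adjusted p = 0.080), YEJH-FP5 (0.061) or YEJH-M2 (0.089). *Lama4* did not pass in 5, without YEJH-FP2 (adjusted p = 0.074), YEJH-M2 (0.071), YEJH-M3 (0.058), repeat 1 (0.115) or repeat 3 (0.164). *Dlc1* missed the threshold in 7 of the 13, without YEJH-FP1 (adjusted p = 0.080), YEJH-FP2 (0.117), YEJH-FP3 (0.066), YEJH-FP5 (0.061), YEJH-M2 (0.089), YEJH-M3 (0.071) or repeat 1 (0.095). *Slpi* missed it in 9 (adjusted p = 0.069 to 0.196), that is, in all but those without YEJH-FP3, YEJH-M1, YEJH-M4 or YEJH-M5. *Serinc3* missed it in 11 (adjusted p = 0.053 to 0.234), that is, in all but those without YEJH-M1 or YEJH-M5.

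Among the genes that did not pass the threshold, 251 protein-coding genes with a mean of at least 50 normalised counts had non-overlapping lines and the same direction in both runs, 75 higher and 176 lower in lung. The 12 with the smallest p in each direction are given as values. Among the 12 higher in lung, *Tle4*, a Groucho-type transcriptional corepressor, held 74.8, 71.7, 63, 54 and 77 normalised counts in fat-pad lines and 103, 199, 195, 95.6 and 167 in lung lines (log2 difference 1.16 ± 0.22, standard error). *Il23a*, a subunit of a cytokine that acts on T helper cells, held 606 to 808 in fat-pad and 865 to 1279 in lung lines (0.59 ± 0.12). *Csf1r*, the receptor for the macrophage growth factor Csf1, held 60.1 to 78.9 and 93.3 to 206 (1.095 ± 0.21). *Csf1r* lies opposite to *Hmgxb3*, which had 42232 reads against its 1053 and a log2 fold change of -0.02, and reads from either strand could not be told apart.

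The other genes higher in lung had smaller differences. Those of *Lyplal1*, related to acyl-protein thioesterases, *Net1*, an exchange factor for RhoA, *Pdp2*, a phosphatase that switches on pyruvate dehydrogenase, and *Gadd45b*, a stress sensor, were 0.45 ± 0.098, 0.28 ± 0.058, 0.26 ± 0.049 and 0.25 ± 0.054 on the log2 scale. Those of *Rdh11*, a retinal reductase, *Ccn2*, a matricellular protein, and *Sh3d19*, an adaptor that binds ADAM proteases, were 0.23 ± 0.047, 0.23 ± 0.049 and 0.17 ± 0.031. *Idi1* and *Elovl6* belong to lipid synthesis and are described below.

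Among the 12 lower in lung, *Lox*, the lysyl oxidase that crosslinks collagen and elastin, held 139, 127, 133, 175 and 141 normalised counts in fat-pad lines and 17.8, 64.3, 40.9, 76.3 and 50.9 in lung lines (-1.501 ± 0.28, log2 difference and standard error). The highest lung line, YEJH-M4, lay well below the lowest fat-pad line. *Bmp4*, a morphogen of the TGF-beta family, held 80.1 to 93.7 in fat-pad and 24.6 to 54.6 in lung lines (-1.099 ± 0.19). *Angpt1*, the ligand that stabilises vessels through Tie2, held 57 to 84.1 and 20.8 to 43.3 (-1.08 ± 0.195). *Casp12*, an inflammatory-type caspase of the endoplasmic reticulum, held 88.3 to 104 and 31.2 to 55.6 (-0.996 ± 0.16).

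Differences of the others lower in lung were -0.69 ± 0.13 for the hedgehog co-receptor *Boc*, -0.42 ± 0.062 for the adhesion protein *Mxra8*, which came closest to the threshold (adjusted p = 0.057), and -0.36 ± 0.067 for *Fah*, the last enzyme of tyrosine breakdown. They were -0.35 ± 0.061 for the interferon-induced *Ifit2* and -0.32 ± 0.051 for *Vasn*, which binds TGF-beta. They were -0.24 ± 0.045 for the microsomal chaperone *Hspa13*, -0.18 ± 0.034 for the zinc and manganese transporter *Slc39a14* and -0.16 ± 0.029 for the growth factor precursor progranulin, *Grn*. *Vasn* lies within the gene bodies of *Dnaja3*, on its strand, and *Coro7*, on the other, which had 256% and 25.2% of its reads and log2 fold changes of -0.03 and -0.06. The difference of *Ifit2* was -0.16 in run A and -0.48 in run B.

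**Figure D2:**
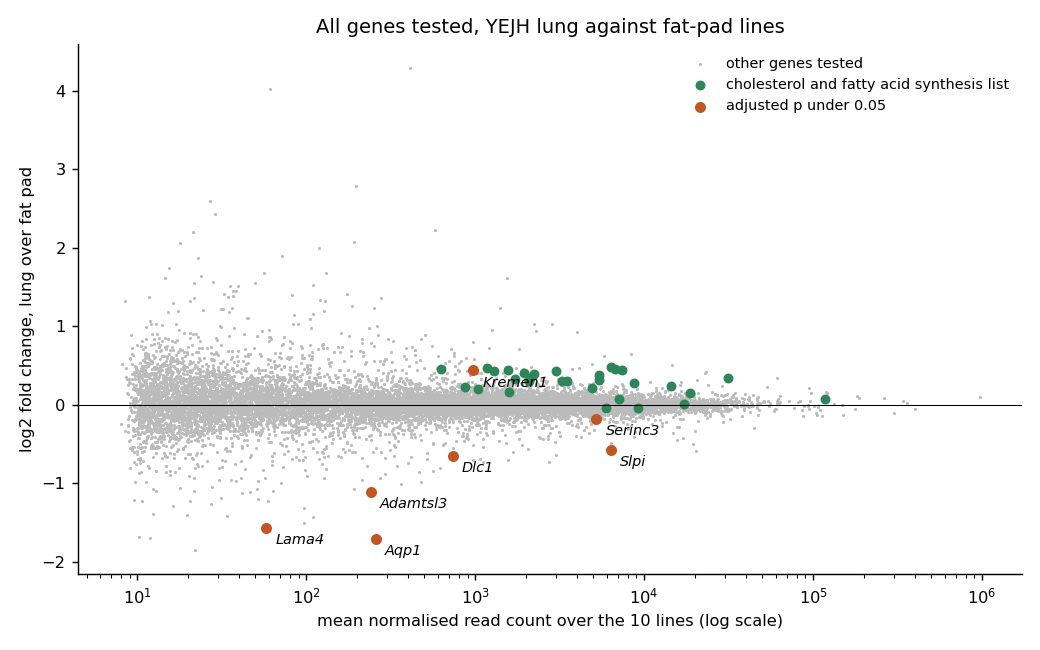
Log2 fold change of lung over fat-pad lines from edgeR (vertical axis) against the mean normalised read count over the 10 lines (horizontal axis, log scale) for all 14990 genes tested. Orange points are the 7 genes past an adjusted p of 0.05, and green points the 30 genes of cholesterol and fatty acid synthesis, 28 of which lie above 0.

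Lists of genes by function are described by counts and medians, beside those of all genes tested, whose median log2 fold change was 0.0069. Of all genes tested, 3.4% were higher and 4.14% lower at an unadjusted p under 0.05. Lines did not overlap in 0.64% (higher) and 1.38% (lower) of all genes. The counts of each list are to be read beside these shares. Members at an unadjusted p under 0.05 are named, also where a list held more such members than the rule for named genes takes. One list stood out in these counts, and the lists had been chosen with earlier results of these data known. Of the 30 genes of cholesterol and fatty acid synthesis, all were tested, 0 passed the adjusted threshold, and 21 had an unadjusted p under 0.05, all 21 higher in lung lines (70.0%, against 3.4% of all genes). Their median log2 fold change was 0.31. Its members are described one by one, apart from those not reported here, a choice made after their values had been seen. Cells make cholesterol from acetyl-CoA through mevalonate, isoprenoid units, squalene and lanosterol. The transcription factor encoded by *Srebf2* switches these genes on when sterols are low, and proteins such as Insig1 hold it back when sterols are high.

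The starts of 4 sterol genes are shown because promoters of this pathway are known for shared elements. Next to the fatty acid gene *Elovl6*, these 4 had the smallest p of the list. RefSeq's table of promoters matched 20 of the 30 genes and 4 of the 7 genes that passed (*Adamtsl3*, *Aqp1*, *Serinc3* and *Slpi*). Each stretch runs from 250 bases before to 50 bases after the gene's start on its own strand, 5′ to 3′, and capitals mark GGGCGG and CCAAT on either strand. Coordinates are those of GRCm38.p6. *Insig1* lies at chr5:28071162-28071461, forward strand, *Idi1* at chr13:8885356-8885655, forward strand, *Lss* at chr10:76531355-76531654, forward strand and *Cyp51* at chr5:4104648-4104947, reverse strand.
Insig1: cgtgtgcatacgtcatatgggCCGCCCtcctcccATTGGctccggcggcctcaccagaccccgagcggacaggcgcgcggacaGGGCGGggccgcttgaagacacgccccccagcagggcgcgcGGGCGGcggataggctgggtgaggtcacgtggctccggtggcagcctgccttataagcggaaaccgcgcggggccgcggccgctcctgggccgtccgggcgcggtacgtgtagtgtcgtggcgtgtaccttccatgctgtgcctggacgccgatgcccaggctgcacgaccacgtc
Idi1: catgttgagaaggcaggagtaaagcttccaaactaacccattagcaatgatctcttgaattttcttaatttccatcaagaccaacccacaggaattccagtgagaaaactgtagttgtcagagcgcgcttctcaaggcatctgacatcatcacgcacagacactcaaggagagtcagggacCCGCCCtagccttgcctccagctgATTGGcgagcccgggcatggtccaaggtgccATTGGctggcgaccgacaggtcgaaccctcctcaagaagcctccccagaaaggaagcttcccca
Lss: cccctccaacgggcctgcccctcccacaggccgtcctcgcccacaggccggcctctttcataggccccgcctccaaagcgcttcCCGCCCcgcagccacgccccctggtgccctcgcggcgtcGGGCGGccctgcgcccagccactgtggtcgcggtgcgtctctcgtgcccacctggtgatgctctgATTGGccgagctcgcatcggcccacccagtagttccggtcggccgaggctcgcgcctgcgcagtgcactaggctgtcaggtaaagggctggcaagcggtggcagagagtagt
Cyp51: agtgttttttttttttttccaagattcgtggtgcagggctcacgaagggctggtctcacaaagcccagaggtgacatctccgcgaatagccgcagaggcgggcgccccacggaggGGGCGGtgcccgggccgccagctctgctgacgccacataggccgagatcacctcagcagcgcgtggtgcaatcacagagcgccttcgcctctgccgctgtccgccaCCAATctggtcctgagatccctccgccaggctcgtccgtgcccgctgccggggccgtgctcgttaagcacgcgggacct

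On either strand, CCAAT was found in a promoter of 17 of the 20 genes matched (41.1% of all 27025 genes in the table) and GGGCGG in 16 of the 20 (38.2% of all genes). Over the 9742 genes of the table that were tested, the shares were 43.4% and 69.4%. CACGTG was found in 4 of the 20 (8.09% of all genes, 11.5% of those tested) and TGANTCA in 2 (8.97% and 6.46%). TCACNCCAC, the core of a sterol regulatory element, was found in 1, *Hmgcs1* (1.44% and 1.32%), and TATAAA in 0 (15.7% and 8.797%). Among the 4 matched genes that passed, GGGCGG was found in *Adamtsl3*, *Aqp1* and *Serinc3*, CCAAT in *Serinc3* and CACGTG in *Slpi*, with 0 matches to TATAAA and TGANTCA. The list was searched after its values had been seen. A match describes letters in these windows and does not show a bound site.

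Following the pathway from its start, *Acly*, which makes cytosolic acetyl-CoA, held normalised counts of 17309.8 to 18867 in fat-pad lines and 17074 to 21731 in lung lines (log2 difference 0.15 ± 0.059, standard error). *Hmgcs1*, which makes HMG-CoA, held 5978, 5977, 7031, 6116 and 6121.5 in fat-pad lines and 9785, 9735, 8207, 8452 and 6288 in lung lines (0.44 ± 0.11). In this gene 4 lung lines lay above every fat-pad line, and YEJH-M5 lay among the fat-pad lines.

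The enzymes that turn mevalonate into isoprenoid units followed, with 0.204 ± 0.079 for *Mvk*, 0.22 ± 0.11 for *Pmvk*, whose unadjusted p was above 0.05, and 0.45 ± 0.11 for *Mvd*. *Idi1*, the isomerase of these units, held 1026, 857, 1034, 1038 and 989 normalised counts in fat-pad lines and 1497, 1643, 1328, 1184 and 1219 in lung lines (0.47 ± 0.093), without overlap. *Fdps*, which joins the units, and *Fdft1*, the squalene synthase, differed by 0.401 ± 0.12 and 0.43 ± 0.13. *Sqle*, the squalene epoxidase and a second control point of the pathway, held 5237 to 6323 and 5261 to 9605 (0.46 ± 0.14), with YEJH-M5 within the range of the fat-pad lines.

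From lanosterol to cholesterol, *Lss*, the cyclase that closes the sterol rings, held 1690.2, 1793, 2135, 1804 and 1901 normalised counts in fat-pad lines and 2476, 2513, 2596, 2252 and 2033 in lung lines (0.35 ± 0.077). *Cyp51*, the lanosterol demethylase, held 4979, 5055, 6009.5, 5153 and 5233 and 8531, 8479, 6947, 7241 and 5576 (0.48 ± 0.11). In both genes YEJH-FP3 was the highest fat-pad line and lay above YEJH-M5. The later steps differed by 0.38 ± 0.096 for *Msmo1*, 0.43 ± 0.12 for *Nsdhl*, 0.304 ± 0.101 for *Hsd17b7* and 0.298 ± 0.0901 for *Sc5d*. *Dhcr7*, a sterol reductase, differed by 0.08 ± 0.073, with an unadjusted p above 0.05.

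Among the regulators, *Srebf2* differed by 0.32 ± 0.1001 and *Insig1* by 0.397 ± 0.074, with 1828, 1855, 2222, 1808 and 1836 normalised counts of *Insig1* in fat-pad lines and 2672, 2681, 2666, 2378 and 2182 in lung lines. YEJH-FP3 overlapped YEJH-M5 by a narrow margin. *Stard4*, a sterol carrier, differed by 0.32 ± 0.084. *Srebf1*, the factor for fatty acid genes, differed by -0.05 ± 0.058.

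On the fatty acid side, *Elovl6*, which elongates palmitate, held 4408, 4510.2, 4743, 4442 and 4629 normalised counts in fat-pad lines and 5472, 5615.5, 5204, 5049 and 5152 in lung lines (0.22 ± 0.037, adjusted p = 0.093), without overlap and with the smallest p of the list. The desaturases *Scd2* and *Fads2* differed by 0.35 ± 0.104 and 0.44 ± 0.16. *Scd1* and *Fads1*, at 0.298 ± 0.18 and 0.17 ± 0.12, had unadjusted p values above 0.05. So had the fatty acid synthase *Fasn* at 0.07 ± 0.056 and the acetyl-CoA carboxylase *Acaca* at -0.04 ± 0.038. *Scd1* and *Scd2* are close paralogs, and how the counting split reads shared between such genes was not tested.

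The level of the list differed between the lung lines. Its value in a line, taken as the median over the 30 genes of the log2 normalised count minus the mean of the fat-pad lines, was -0.037, -0.035, 0.147, -0.033 and -0.023 in YEJH-FP1 to YEJH-FP5. It was 0.435, 0.495, 0.349, 0.293 and 0.0082 in YEJH-M1 to YEJH-M5, so that 4 lung lines lay above every fat-pad line and YEJH-M5 among them. With 1 line or technical repeat number left out, the median log2 fold change was 0.25 to 0.40 and 19 to 24 of the 30 genes had an unadjusted p under 0.05, the highest without YEJH-M5. Under the other alternatives the median was 0.29 to 0.31 and the count 16, in run A alone, to 24, and in each alternative run for the list the genes at this threshold were all higher in lung. A limma fit with run as covariate kept the technical libraries apart, with a correlation of 0.155 within a line, so that its unit was not the line. In that fit 17 of the 30 genes passed an adjusted p of 0.05, all higher, against 0.754% of all genes higher and 1.34% lower. With DESeq2 11 passed, all higher, against 0.36% of all genes higher and 0.66% lower.

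**Figure D3:**
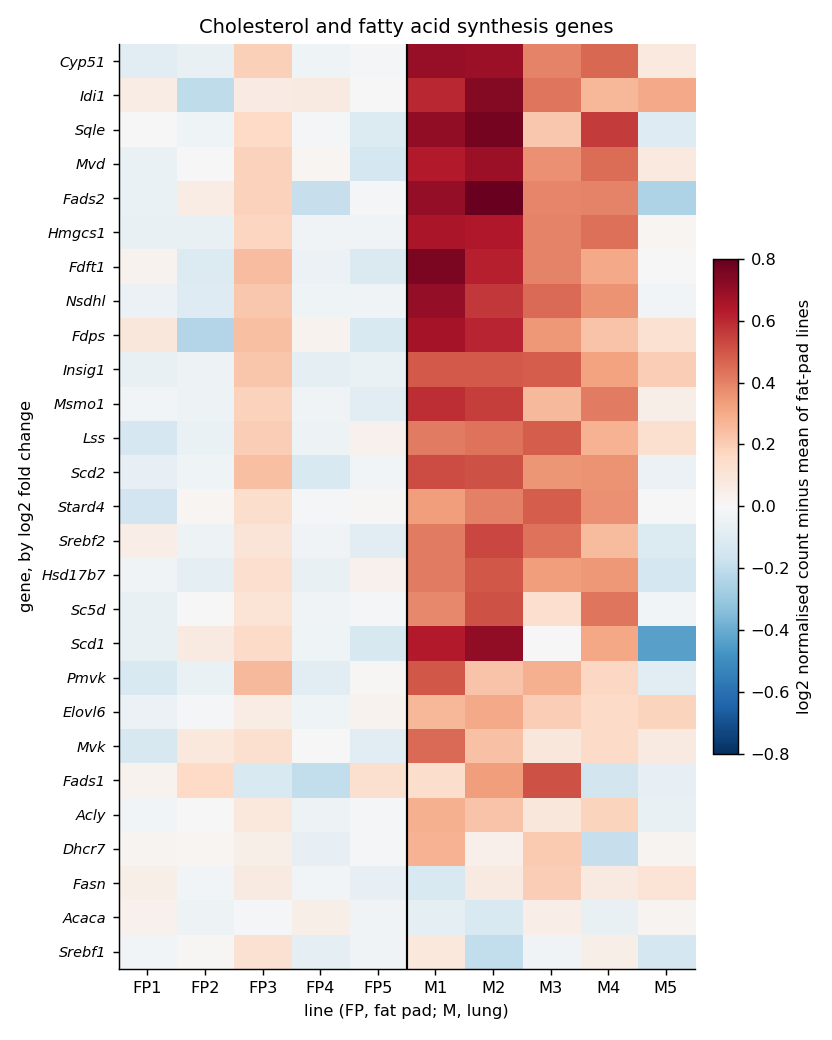
Log2 normalised read count minus the mean of the 5 fat-pad lines, for 27 genes of cholesterol and fatty acid synthesis (rows, ordered by log2 fold change) in the 10 lines (columns). Red is above and blue below the mean of the fat-pad lines. YEJH-M1 to YEJH-M4 are red over most of the sterol genes, YEJH-M5 is near the fat-pad level, and the bottom rows from *Fasn* to *Srebf1* show little difference.

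Matrix genes included 1 that passed. Of 37 basement membrane and fibrillar matrix genes 26 were tested, *Lama4* passed, 2 were higher (7.69%) and 3 lower (11.5%, *Lama4* included) at an unadjusted p under 0.05, and the median log2 fold change was -0.02. *Col6a1* and *Col6a2*, which encode chains of the beaded-filament collagen VI, held 157, 222, 157, 143 and 156 and 24.2, 25.8, 22, 19.7 and 28.9 normalised counts in fat-pad lines. In lung lines they held 130.5, 67.1, 78.7, 71.5 and 93.3 and 16.7, 7.56, 16.8, 9.66 and 7.54, below the fat-pad lines in both genes (log2 differences -0.92 ± 0.19 and -1.06 ± 0.26, standard error). *Sparc*, a collagen-binding matricellular protein, held 499.6 to 1034 in fat-pad lines and 3328, 5322, 889, 1505.5 and 593 in lung lines (1.61 ± 0.53), with YEJH-M3 and YEJH-M5 in the range of the fat-pad lines. *Lama3*, a laminin chain of epithelial basement membrane, was high in YEJH-M2 and YEJH-M4, at 25641 and 23008, and in the other lung lines was at 11134 to 12951, within or near the 10648 to 13585 of the fat-pad lines (0.51 ± 0.22).

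Of 37 matrix proteases, inhibitors and crosslinkers 32 were tested, 2 were higher (6.25%) and 6 lower (18.75%) at an unadjusted p under 0.05, 0 passed, and the median was -0.06. The lower ones included *Lox*, described above, and protease inhibitors. *Timp1*, an inhibitor of metalloproteinases, held 9115 to 10252 normalised counts in fat-pad and 6959 to 9093 in lung lines (-0.34 ± 0.073), and *Timp3* differed by -0.34 ± 0.12. *Serpine2*, a serine protease inhibitor, differed by -0.84 ± 0.24. The urokinase receptor *Plaur* differed by -0.24 ± 0.095. *Adam8*, a membrane protease, lay higher without overlap, at 3261 to 3579 and 3666 to 4564 (0.27 ± 0.062). *Loxl4*, a relative of *Lox*, is described with the genes that differ among lung lines. With libraries kept apart and run as covariate in limma, where the unit was not the line, 1 member of this list passed higher and 7 passed lower, against 0.754% and 1.34% of all genes.

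Of 32 integrin and focal adhesion genes 30 were tested, with 1 higher and 1 lower (3.33% each, near the shares of all genes) at an unadjusted p under 0.05 and a median of 0.02. *Itga6*, the laminin-binding integrin chain, held 33445 to 35409 normalised counts in fat-pad and 28218 to 32171 in lung lines (-0.18 ± 0.042), and *Itgb5* differed by 0.23 ± 0.086. Of 29 cell junction genes 27 were tested, with 2 higher (7.41%) and 0 lower, and a median of 0.02. *Ctnnd1*, which encodes p120-catenin, held 1671 to 1768 and 1772 to 1993 (0.13 ± 0.038), and the tight junction gene *Cldn4* differed by 0.32 ± 0.11. E-cadherin, *Cdh1*, differed by -0.03 ± 0.0701.

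Of 17 genes of mesenchymal transition 14 were tested, with 0 higher and 3 lower (21.4%) at an unadjusted p under 0.05, 0 passing, and a median of -0.13. *Vim*, the intermediate filament vimentin, held 21020.4, 22093, 23239, 23655 and 31823 normalised counts in fat-pad lines and 10165, 22715, 17606, 15631.5 and 14793 in lung lines (-0.59 ± 0.18). YEJH-M2 alone among the lung lines lay within the range of the fat-pad lines. The transcriptional repressors *Zeb1* and *Zeb2* differed by -0.38 ± 0.14 and -0.33 ± 0.12, again with YEJH-M2 the highest lung line. Of 20 luminal epithelial genes 10 were tested, with 0 at an unadjusted p under 0.05 and a median of 0.15, and the smallest p belonged to the oestrogen receptor gene *Esr1* (0.16 ± 0.097) and the keratin gene *Krt18* (0.15 ± 0.0896). Of 14 basal and myoepithelial genes 4 were tested, with 1 higher, *Il17b*, and 1 lower, the keratin gene *Krt14*, which held 16708, 15759, 19186, 17584 and 20894 in fat-pad and 17142, 8893.5, 10233, 17437 and 12578 in lung lines (-0.44 ± 0.18), and a median of -0.03.

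Interferon-induced genes lay lower in part. Of 26 genes 21 were tested, 0 were higher and 4 lower at an unadjusted p under 0.05 (19.05%, against 4.14% of all genes), 0 passed, and the median was -0.11. *Ifit2* and *Ifit1*, which bind viral RNA or the translation machinery, held 847 to 926 and 175 to 232 normalised counts in the fat-pad lines and 610.4 to 753 and 109.6 to 152 in lung lines (-0.35 ± 0.061 and -0.60 ± 0.12). *Gbp3*, a guanylate-binding protein, held 64.5 to 106 and 56.7 to 60.8 (-0.62 ± 0.14). These 3 did not overlap, and *Isg15*, a ubiquitin-like modifier, differed by -0.30 ± 0.11. Of 16 class I antigen presentation genes, all tested, 1 was higher (6.25%) and 2 lower (12.5%), with a median of -0.08, namely the transporter *Tap2* at 0.23 ± 0.099, *B2m* at -0.105 ± 0.035 and *H2-D1* at -0.102 ± 0.045. The count of 3 became 1 without library 2 of YEJH-M3. The class I, Ifit and Gbp genes are families of near copies, so that counts of 1 member could hold reads of another.

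Of 27 cytokines and chemokines 24 were tested, with 6 higher (25%, against 3.4% of all genes) and 2 lower (8.33%, against 4.14%) at an unadjusted p under 0.05 and a median of 0.10. The higher ones were *Il23a*, *Lif*, an IL-6 family cytokine, at 0.25 ± 0.074, the neutrophil growth factor *Csf3*, which held 1637 to 1883 normalised counts in fat-pad and 1884 to 2793 in lung lines without overlap (0.33 ± 0.11), *Il1a* at 0.93 ± 0.33, *Cxcl12* at 1.99 ± 0.76 and *Tslp* at 0.64 ± 0.24. The lower ones were the macrophage growth factor *Csf1*, at 6772 to 7732 and 4797 to 6902 (-0.26 ± 0.0901), and *Il11* at -0.79 ± 0.26.

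**Figure D4:**
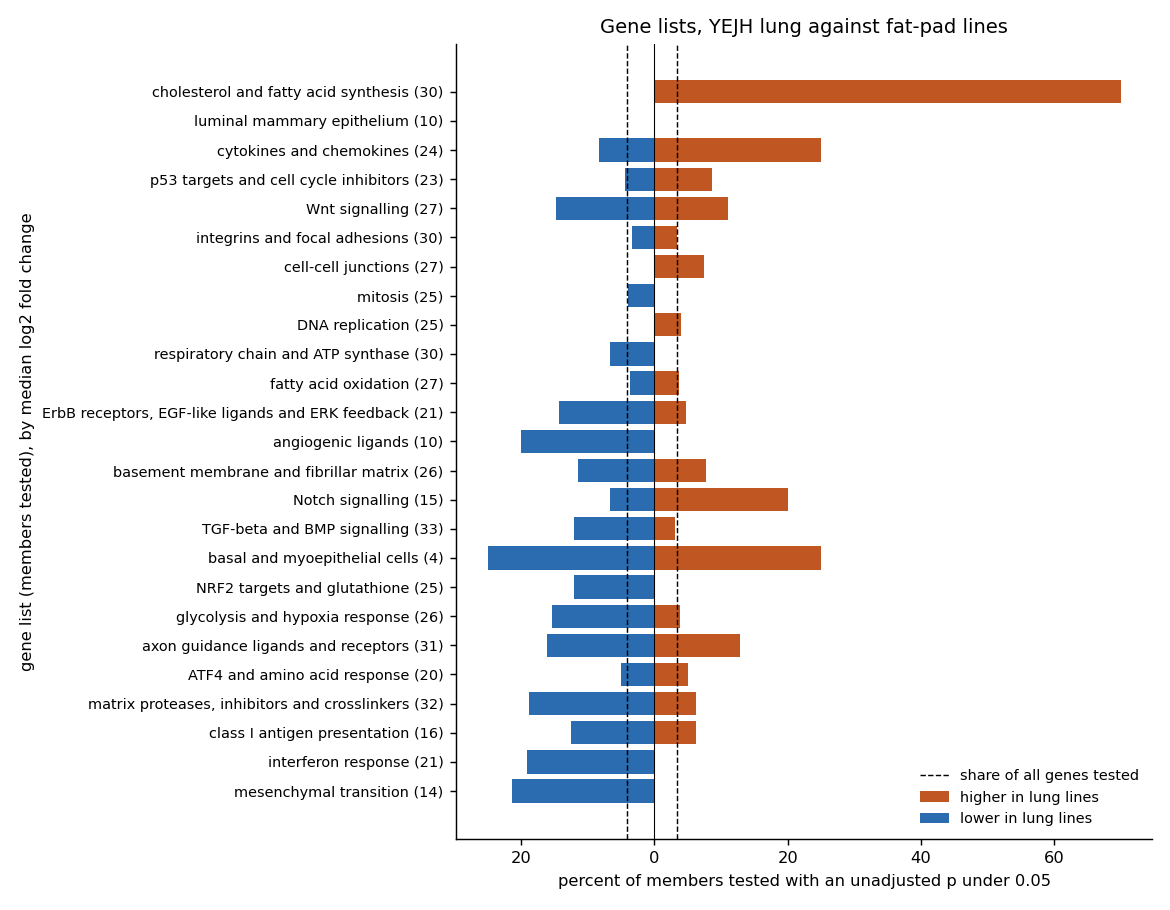
Percent of the tested members of each of 25 gene lists with an unadjusted p under 0.05 in edgeR's test, higher (orange, to the right) or lower (blue, to the left) in lung lines. Dashed lines are the shares over all genes tested, 3.4% higher and 4.14% lower. The list of cholesterol and fatty acid synthesis reaches 70.0% to the right, and the next largest bars belong to lists of 4 to 24 members tested.

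Wnt genes lay in both directions. Of 39 genes 27 were tested, *Kremen1* passed, 3 were higher (11.1%, *Kremen1* included) and 4 lower (14.8%) at an unadjusted p under 0.05, and the median was 0.03. The ligand gene *Wnt7a* held 4599 to 5069 normalised counts in fat-pad and 5083 to 6123 in lung lines without overlap (0.17 ± 0.0502). The lower ones were the R-spondin receptor *Lgr4* at -0.22 ± 0.057, the receptor *Fzd1* at -0.21 ± 0.082, the ligand *Wnt5b* at -0.57 ± 0.25 and the co-receptor *Lrp5* at -0.11 ± 0.047. Of 35 TGF-beta and BMP genes 33 were tested, with 1 higher (3.03%) and 4 lower (12.1%) and a median of -0.03. Beside *Bmp4* these were the receptor *Bmpr1a* at -0.08 ± 0.029, the antagonist *Grem1* at -0.77 ± 0.32 and the target *Id1* at -0.17 ± 0.076, with *Bmp7* higher.

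Of 21 Notch genes 15 were tested, with 3 higher (20%) and 1 lower (6.67%) and a median of -0.02. The DNA-binding effector *Rbpj* differed by 0.25 ± 0.063, its coactivator *Maml2* by 0.39 ± 0.14, the receptor *Notch3* by 0.86 ± 0.37 and the glycosyltransferase *Lfng* by -0.17 ± 0.062. Of 22 ErbB receptors, EGF-like ligands and ERK feedback genes 21 were tested, with 1 higher (4.76%) and 3 lower (14.3%) and a median of -0.01. All 4 were ligands, namely *Areg* at -0.15 ± 0.046, whose lines did not overlap, *Hbegf* at -0.11 ± 0.034, *Ereg* at -0.39 ± 0.13 and, at low counts of 9.48 to 14.4 and 12.3 to 21.7, *Egf* at 0.47 ± 0.21. Of 14 angiogenic ligands 10 were tested, with 0 higher and 2 lower (20%), *Angpt1* and *Angptl2* (-0.24 ± 0.058), and a median of -0.02.

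Of 33 axon guidance genes 31 were tested, with 4 higher (12.9%) and 5 lower (16.1%) and a median of -0.05. The netrin receptor *Unc5b* differed by 0.14 ± 0.034, and the semaphorins *Sema3e*, *Sema3c* and *Sema4b* by -0.26 ± 0.074, -0.22 ± 0.067 and -0.12 ± 0.036. The others were *Sema6a*, *Ephb2* and *Plxna1* at 0.79 ± 0.299, 0.98 ± 0.41 and 0.13 ± 0.058, and *Sema3f* and *Slit2* at -0.17 ± 0.067 and -0.23 ± 0.0999.

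Of 29 glycolysis and hypoxia response genes 26 were tested, with 1 higher (3.85%) and 4 lower (15.4%) and a median of -0.03. *Car9*, a carbonic anhydrase induced by hypoxia, held 491, 514, 427, 373 and 378 normalised counts in fat-pad lines and 162, 137, 336, 297 and 346 in lung lines (-0.77 ± 0.25). The platelet-type phosphofructokinase *Pfkp* held 2602 to 2958 and 1804 to 2577 (-0.29 ± 0.086), also without overlap. The oxygen sensor *Egln3* and the glucose transporter *Slc2a1* differed by -0.97 ± 0.32 and -0.22 ± 0.088, and hexokinase *Hk2* was the higher one at 0.11 ± 0.047.

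Genes of mitochondrial energy use and division had medians near that of all genes. All 30 respiratory chain and ATP synthase genes were tested, with 0 higher and 2 lower (6.67%), *Uqcrc1* at -0.08 ± 0.032 and *Atp5f1a* at -0.07 ± 0.0303, and a median of 0.00013. The 2 were 0 without library 2 of YEJH-M3. Of 28 fatty acid oxidation genes 27 were tested, with 1 higher (3.7%), *Acsl3* at 0.105 ± 0.045, and 1 lower (3.7%), *Acads* at -0.07 ± 0.029, and a median of -0.01. All 25 DNA replication genes were tested, with 1 higher (4%), *Mcm2* at 0.104 ± 0.041, and a median of 0.0067. All 25 mitosis genes were tested, with 1 lower (4%), *Ccnb2* at -0.08 ± 0.034, and a median of 0.0099.

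Of 24 p53 targets and cell cycle inhibitors 23 were tested, with 2 higher (8.7%) and 1 lower (4.35%) and a median of 0.06. *Cdkn2c*, an inhibitor of the kinases that drive cells into S phase, held 1879 to 2219 normalised counts in fat-pad and 1371.5 to 1821 in lung lines without overlap (-0.34 ± 0.073). The p53 targets *Cdkn1a* and *Mdm2* differed by 0.301 ± 0.094 and 0.13 ± 0.0598. Of 21 ATF4 and amino acid response genes 20 were tested, with 1 higher (5%), *Ddit4* at 0.36 ± 0.12, and 1 lower (5%), *Cebpb* at -0.21 ± 0.068, and a median of -0.05. Of 26 NRF2 target and glutathione genes 25 were tested, with 0 higher and 3 lower (12%), the glutathione transferase *Gsta4* at -0.596 ± 0.15, *Cat* at -0.16 ± 0.063 and *Gpx1* at -0.096 ± 0.043, and a median of -0.03. None of the members named in the lists passed the adjusted threshold apart from *Lama4* and *Kremen1*.

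The lung lines differed from each other more than the fat-pad lines did. Over 11040 genes with a mean of at least 100 normalised counts, the median SD of log2 normalised counts was 0.062 between the 5 fat-pad lines and 0.113 between the 5 lung lines, and 80.7% of the genes had the larger SD among lung lines. This share was 66.3% in run A, 84.2% in run B and 76.8% without library 2 of YEJH-M3. The root mean square log2 difference between a pair of lines over these genes was 0.138 to 0.220 within the fat-pad lines, 0.211 to 0.359 between a fat-pad and a lung line, and 0.271 to 0.436 within the lung lines, so that the most alike lung lines, YEJH-M3 and YEJH-M4, differed more than any fat-pad pair. These are descriptions with no test.

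Among the genes named, the largest log2 fold changes went with a wide spread between lung lines. *Il17b*, a cytokine of the interleukin-17 family, held 3.16, 6.69, 7.001, 10.4 and 7.701 normalised counts in fat-pad lines and 53.5, 282, 45.1, 9.66 and 184 in lung lines (4.02 ± 0.83). YEJH-M4 lay within the range of the fat-pad lines, and YEJH-M2 and YEJH-M5 were far above it. *Loxl4*, a lysyl oxidase-like enzyme, held 27.4, 141, 5, 20.8 and 3.85 in fat-pad lines and 91.4, 337, 16.8, 0 and 3453 in lung lines (4.29 ± 1.56), so that 1 line, YEJH-M5, was the highest of all 10 and another, YEJH-M4, was at 0.

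*Wnt10a*, a ligand gene, held 51.6, 123, 29, 20.8 and 22.1 normalised counts in fat-pad lines and 1262, 179.6, 208, 68.6 and 10.4 in lung lines (2.79 ± 1.01). *Bmp7*, a morphogen gene of the BMP family, held 12.6, 7.65, 1, 10.4 and 12.5 and 134, 69.9, 23.1, 11.6 and 3.77 (2.42 ± 0.85). Both were highest in YEJH-M1 and lowest among lung lines in YEJH-M5. *Cxcl12*, the chemokine that draws cells carrying Cxcr4, held 65.3, 42.1, 51, 46.8 and 32.7 and 242, 536, 96.5, 61.8 and 9.42 (1.99 ± 0.76), with YEJH-M2 the highest and YEJH-M5 below every fat-pad line. *Notch3* held 66.4, 60.2, 53, 54.03 and 27.9 and 206, 63.3, 64, 84.98 and 59.3 (0.86 ± 0.37), and apart from YEJH-M1 its lung lines lay near or within the range of the fat-pad lines. *Loxl4* and *Cxcl12* were chosen for this description after their values had been seen.

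**Figure D5:**
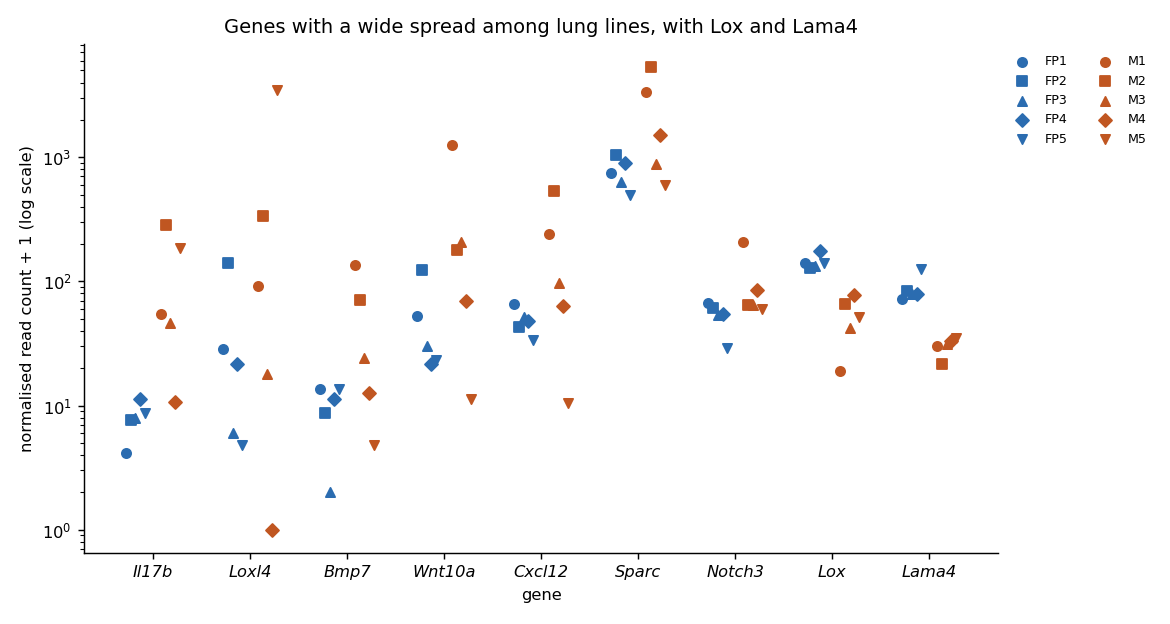
Normalised read count plus 1 (log scale) of 9 genes in the 5 fat-pad lines (blue) and 5 lung lines (orange), with the same symbol for lines of the same number. In *Il17b*, *Loxl4*, *Bmp7*, *Wnt10a*, *Cxcl12* and *Sparc* the lung lines span a wide range that includes the fat-pad lines in part, while all lung lines of *Lox* and *Lama4* lie below the fat-pad lines.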

How the data were processed

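RNA was taken from cultured YEJH fat-pad and lung lines and sequenced with polyA-selected TruSeq libraries that do not mark strand, per the labels. The deposited values are raw read counts per gene, made by the authors with FastQC, HISAT2, SAMtools 1.2 and HTSeq, per the submitters' processing notes. These notes name the build GRCh38, whereas the gene identifiers are those of mouse. All 45 columns of the count table were matched to samples by the library name in each sample's labels, and 0 were left over. The name of 1 column states another line than the sample's title, source and cell line, which were followed. The summary rows of HTSeq stayed out of library sizes and tests. In run A 892979 to 1372504 reads per library were classed as of low alignment quality, and in run B 0 were.

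Counts of the 3 technical libraries of a line were summed. Lung lines were compared with fat-pad lines by edgeR 4.0.16 in R 4.3.3 (TMM scaling, filterByExpr, quasi-likelihood F test, no covariate), with Benjamini-Hochberg adjustment over 14990 genes and a threshold of 0.05. Standard errors are the log2 fold change divided by the square root of F. The fit was tried on simulated counts with the same spread in both groups, unlike these lines, whose lung group was the more variable. In them 54.7% of 1.5-fold and 81.8% of 2-fold changes passed the threshold. Alternatives used DESeq2 1.42.0, limma 3.58.1, other scaling and filters, single runs, a block, and fits with a line, a repeat or a library left out. Gene positions are from GENCODE vM39 (GRCm39), which held 50764 of 54838 identifiers (92.6%), and promoters from RefSeq (GRCm38.p6). Depth was 9723860 to 16943900 reads on genes per library, and intervals from the tests cover the spread between lines.

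Named genes were those past the threshold, the 12 with the smallest p in each direction among non-overlapping protein-coding genes with a mean of at least 50 normalised counts and 1 direction in both runs, and up to 4 members of each list at an unadjusted p under 0.05 (or, where none was, the 2 with the smallest p). The members, lists and tests were chosen with earlier results of these data known. Some genes of the lists count in the totals but are not reported here by name.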

Additional observations from a re-analysis of the deposited data

Results flagged for a closer look

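Values were looked at for a line that stood apart from the other 4 of its group, by its gap to the nearest line divided by the range of the group, with a limit of 0.71. Of 198 groups of 5 lines, 18 passed, and no explanation was tested. Chance gives about 9.9 for independent groups of normally spread values, but the genes here were chosen in part by their values.

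In the fat-pad lines, the genes that passed the adjusted threshold gave *Kremen1* in YEJH-FP2 (859.4 normalised counts, next 824.1, ratio 0.77) and *Lama4* in YEJH-FP5 (125.1, next 82.2, ratio 0.787). In both the line was the highest of its group. YEJH-FP5 was also the highest for *Vasn* (1702.9, next 1592.8, ratio 0.746), *Boc* (170.4, next 146.5, ratio 0.716) and *Vim* (31823.3, next 23654.9, ratio 0.756), and the lowest for *Atp5f1a* (47891.9, next 49465.6, ratio 0.839). YEJH-FP2 was the highest for *Col6a1* (221.8, next 157.0, ratio 0.826) and *Egln3* (68.8, next 49.0, ratio 0.723), and the lowest for *Idi1* (857.5, next 988.6, ratio 0.727). YEJH-FP3 was the highest for *Insig1* (2222.2, next 1854.6, ratio 0.887), *Acsl3* (2707.2, next 2430.7, ratio 0.776) and *Unc5b* (5453.5, next 5149.3, ratio 0.716). YEJH-FP4 was the highest for *Lyplal1* (156.9, next 133.0, ratio 0.711) and *Lox* (174.6, next 140.5, ratio 0.717).

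In the lung lines, YEJH-M1 was the highest for *Wnt10a* (1262.4, next 207.7, ratio 0.842) and *Notch3* (206.3, next 85.0, ratio 0.826). YEJH-M3 was the highest for *Egln3* (53.5, next 24.1, ratio 0.784), and YEJH-M5 the lowest for *Acsl3* (2470.9, next 2662.7, ratio 0.858).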

How the results depend on the processing

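The number of genes past an adjusted p of 0.05 was 7 and depended on the model. It was 153 with DESeq2 (54 higher, 99 lower) and, with libraries kept apart in limma, 340, with run as covariate 314 and with the technical repeat number as replicate block 321. DESeq2 and the limma fits called all 7 genes, and the limma fits took the technical library, not the line, as unit. With 1 line or technical repeat number left out it was 2 (without YEJH-M2) to 110 (without YEJH-M5, 61 higher and 49 lower). It was 18 without YEJH-M1, 13 without YEJH-M4, 4 without YEJH-M3, 3 without YEJH-FP1, YEJH-FP2 or YEJH-FP5, and 3 and 4 without technical repeats 1 and 3. The paper counts as many mice as independent cell lines, and fewer of each than the 10 lines compared here. Some lines may thus share a mouse, and the paper does not say which fat-pad and lung lines came from the same mouse. Whether same-numbered lines share a mouse is therefore not given in the sources used here, and the lines were treated as unpaired. Deviations of same-numbered lines had correlations of -0.176 to 0.0316 (mean -0.0555, other pairs 0.0141). With the line number as replicate block the 7 calls became 0 in edgeR (adjusted p = 0.118 to 0.317), with 1056 at an unadjusted p under 0.05. Other scaling, filters, run share, single runs and library 2 of YEJH-M3 or 1 of YEJH-M1 left out gave 5 to 8, of which 4 to 7 were among the 7.

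Of the 303 genes without overlap between the groups, 44 had none in either run (8 higher, 36 lower). Among named genes 3 values changed sign, all for markers far from the threshold and with 1 line left out. *Foxj1* was -0.18 without YEJH-M3 and up to 0.26 without YEJH-M4. *Pdgfra* was 0.025 without YEJH-M5 and down to -0.21 without YEJH-M1. *Col1a1* was -0.012 without YEJH-M1 and up to 0.34 without YEJH-M5. The causes were not tested. List medians moved by more than the spread between lines in 2 cases, mitosis and glycolysis in run A alone (0.060 and -0.087). With 5 lines a group the spread limits small changes, and the common biological coefficient of variation was 0.123.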
